A study of Homo sapiens with 6 samples.

Results

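The genes described here are 7 inhibitors of cyclin-dependent kinases (CDKN1A, CDKN1B, CDKN1C, CDKN2A, CDKN2B, CDKN2C and CDKN2D) together with MDM2 and GADD45A. Their probes were found by gene symbol, for 9 of 34423 gene names and 14 of 50599 probes on the array, and no measured value enters that step. The symbols, and the gene lists used below, were chosen with earlier results of these data known. Gene expression was measured in 6 subcutaneous tumors grown in young adult female BALB/c nude mice from BxPC-3, a cell line of human pancreatic adenocarcinoma, with 1 tumor per one-color human 60-mer array. Treatment began at a tumor volume of 150 mm3. The 3 DFX-treated tumors came from mice given the oral iron chelator deferasirox (DFX) at 200 mg/kg every second day for 21 days, and the 3 control tumors from mice given the vehicle alone. All tumors derive from a single cell line in hosts without mature T cells, and the tissue was the whole excised tumor. Fewer cells expressing a gene and less RNA of that gene per cell can therefore not be told apart.

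Cyclin-dependent kinases drive cells through the cycle when bound to cyclins. The Cip/Kip inhibitors p21 (CDKN1A), p27 (CDKN1B) and p57 (CDKN1C) bind many cyclin-kinase complexes, while the INK4 inhibitors p16 (CDKN2A), p15 (CDKN2B), p18 (CDKN2C) and p19 (CDKN2D) bind the kinases CDK4 and CDK6. The transcription factor p53 raises CDKN1A and GADD45A after DNA damage, and also MDM2, the ubiquitin ligase that marks p53 for degradation. Loss of CDKN2A is frequent in pancreatic cancer.

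None of these genes passed the test for a difference between DFX-treated and control tumors by its brightest probe, and the measured changes were small. Of the 14 probes, 12 passed the detection filter, and these were well above background on all 6 arrays, so that 8 of the 9 genes could be tested. CDKN2B and the second CDKN2A probe did not pass. With a gene represented by its brightest tested probe, 0 of 8 genes had an unadjusted p under 0.05 in limma, and the Kruskal-Wallis H test also called 0. For 3 tumors per group, the approximate p of the latter falls under 0.05 only where the groups do not overlap. Its calls therefore repeat the count of genes or probes without overlap, for which the smallest exact p is 0.1. Over all genes tested the share called by limma was 7.98%. The groups were without overlap for 0 of the 8 genes, against 15.4% of all genes. By any tested probe it was 1 of 8 genes, MDM2, where the share over all genes was 10.8%. Of the 12 probes 1 was lower and 0 were higher at that threshold, where 4.95% of all tested probes were lower and 3.46% higher. With Benjamini-Hochberg adjustment over the 31807 probes that were tested, 0 passed in limma, and the adjusted p of the 12 probes lay between 0.557 and 0.998. All adjusted p-values given below come from that adjustment.

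The median size of the log2 fold change was 0.0747 over the 12 probes and 0.159 over all tested probes. The 95% intervals of the 12 probes spanned folds of 0.625 to 1.386. All 12 intervals lay within a 2-fold change either way, as did the intervals of 77.5% of all tested probes. These comparisons were not matched for intensity. The 12 probes were well above background on all arrays, while the tested probes also include dimmer ones. By the brightest probe 6 genes were above 0 and 2 below, with a median log2 fold change of 0.025, but all 8 were below 0 after median scaling of the arrays, which moved the median of all probes to -0.1. The direction of such small values was therefore not settled for most of these genes.

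**Figure D1:**
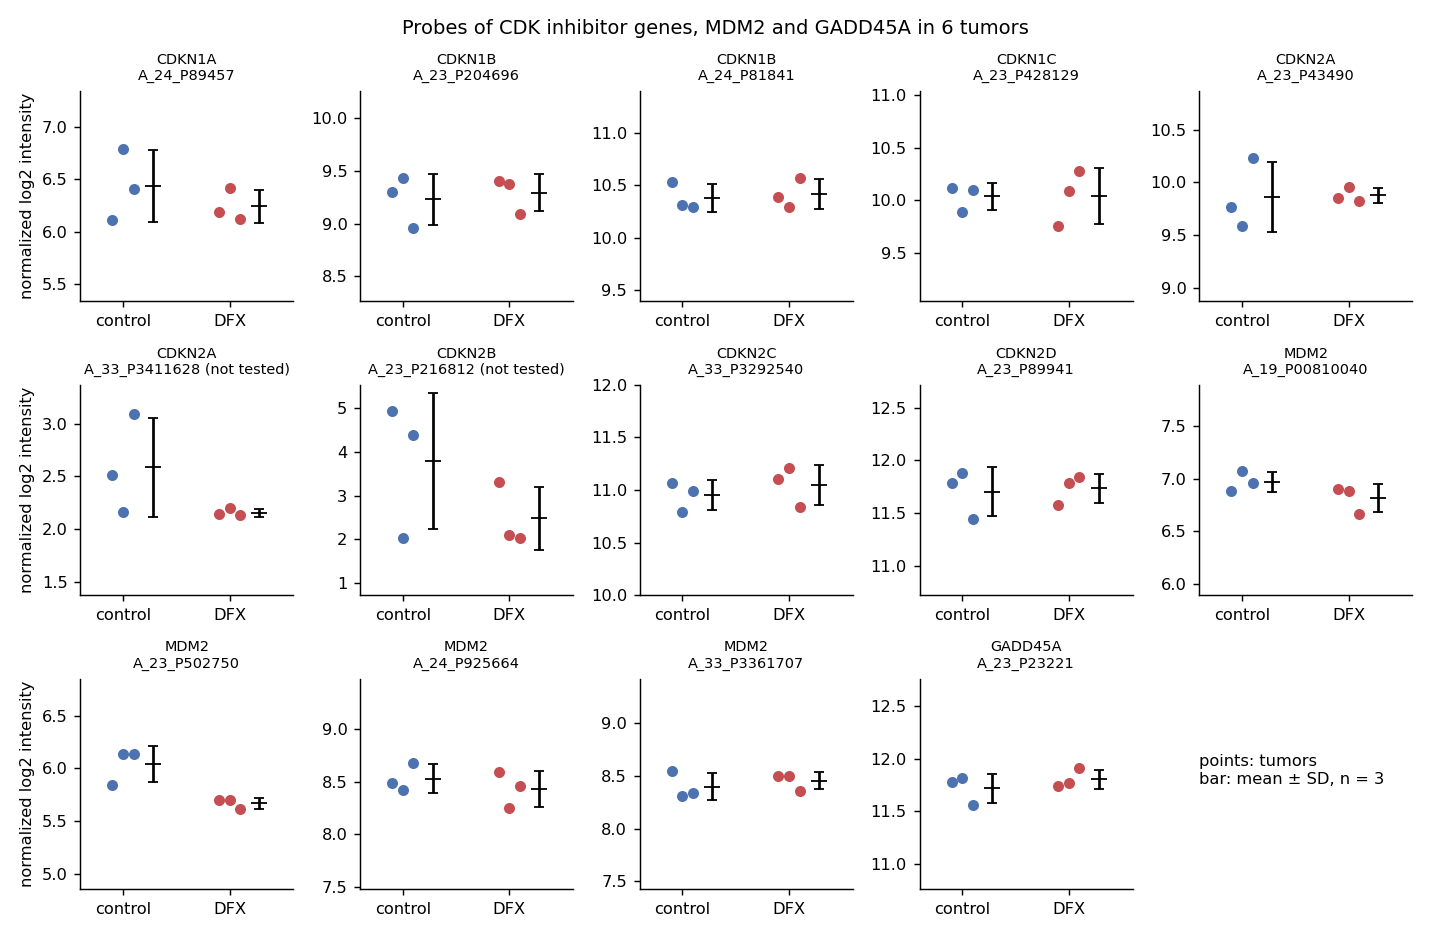
Normalized log2 intensity (vertical axes, a separate range in each panel) of the 14 probes in the 3 control (blue) and 3 DFX-treated (red) tumors, with the mean and SD of each group as bars. The groups overlapped in every panel except that of MDM2 probe A_23_P502750, where the DFX-treated tumors lay between 5.61 and 5.70 and the control tumors between 5.84 and 6.14.

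**Figure D2:**
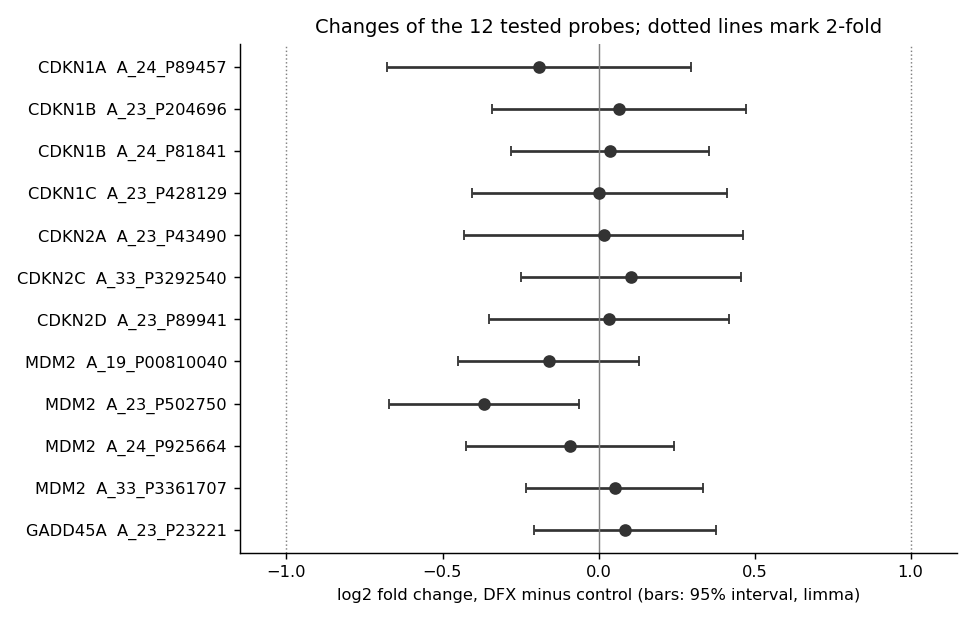
Log2 fold change of the 12 tested probes, DFX minus control, with its 95% interval from limma, for 3 tumors per group. Dotted lines mark a 2-fold change, and only the interval of MDM2 probe A_23_P502750 lay wholly on one side of 0.

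Sequences of 3 probes are shown for reference, in lower case and from 5′ to 3′. Each holds an open reading frame over its 60 bases, which other probes not shown also do. The CDKN2A pair of probes gave very different signals, and the probe shown is the one near background. The CDKN1B probe is from the gene's open frame, while its other probe was spotted 10 times per array. The MDM2 probe reaches a stop codon, in capitals, and so marks the end of the open frame that the other MDM2 probes follow.
CDKN2A, A_33_P3411628, chr9:21970901-21970960 (hg19, minus strand): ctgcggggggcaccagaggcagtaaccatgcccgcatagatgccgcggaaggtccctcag
CDKN1B, A_23_P204696, chr12:12871119-12871178 (hg19, plus strand): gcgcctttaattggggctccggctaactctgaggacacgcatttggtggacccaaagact
MDM2, A_33_P3361707, chr12:69233570-69233629 (hg19, plus strand): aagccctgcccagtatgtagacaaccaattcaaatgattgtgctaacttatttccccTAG

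Among the Cip/Kip inhibitors, CDKN1A is the classic p53 target and the inhibitor most often raised when cells stop dividing. Its probe A_24_P89457 (chromosome 6, 36652178 to 36652237, hg19) had normalized log2 intensities of 6.11, 6.79 and 6.41 in the controls and 6.19, 6.42 and 6.12 after DFX. The groups overlapped, and control 2 was the highest. DFX minus control was -0.19 on the log2 scale (standard error 0.20, 95% interval -0.68 to 0.30, adjusted p = 0.804 in limma with Benjamini-Hochberg adjustment). The interval reached from a fold of 0.625 to one of 1.229, so that an increase of CDKN1A mRNA by more than this was outside it. The value was -0.356 without control 1, -0.012 without control 2, and 0.017 with the column of the slide as a block.

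CDKN1B, which holds cyclin E and CDK2 complexes in quiescent cells, had a pair of probes. A_24_P81841 was spotted 10 times on each array, and its tumor values were 10.53, 10.31 and 10.29 in the controls and 10.39, 10.29 and 10.57 after DFX. Control 1 and DFX 3 were the high tumors, 1 in each group. The mean log2 change was 0.04 (standard error 0.13, adjusted p = 0.948 in limma). Within an array the SD of the 10 spots was 0.038 to 0.062, below the SD between tumors of 0.13 in the controls and 0.14 after DFX. Probe A_23_P204696, whose sequence is given above, had 9.30, 9.43 and 8.96 in the controls and 9.41, 9.38 and 9.09 after DFX, again with overlap. For this probe the log2 change was 0.06 (standard error 0.17, adjusted p = 0.929 in limma).

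CDKN1C is an imprinted gene on chromosome 11, with probe A_23_P428129 at 2904903 to 2904962 on the minus strand. It had 10.12, 9.89 and 10.10 in the controls and 9.75, 10.09 and 10.28 after DFX. The lowest and the highest tumor were both DFX-treated, and the group means were both 10.04. The log2 fold change was 0.00 (standard error 0.17, 95% interval -0.41 to 0.41, adjusted p = 0.998 in limma).

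Among the INK4 inhibitors, the members of one locus on chromosome 9 differed in whether they could be measured. CDKN2A probe A_23_P43490 (21968039 to 21968098, minus strand) was well above background on all 6 arrays, with 9.77, 9.59 and 10.23 in the controls and 9.85, 9.96 and 9.82 after DFX. The control tumors enclosed the DFX-treated tumors, with an SD of 0.33 against 0.08. The log2 fold change was 0.02 (standard error 0.18, 95% interval -0.43 to 0.46, adjusted p = 0.988 in limma). The other CDKN2A probe, A_33_P3411628, whose sequence is given above and has 66.7% G and C, was well above background on 0 arrays. Its values were 2.51, 2.16 and 3.09 in the controls and 2.14, 2.20 and 2.13 after DFX. The probes of CDKN2A thus disagreed on whether its RNA was present above background, and only the former was tested. Which of them reflects CDKN2A RNA in these tumors was not settled. Every result given for CDKN2A by its brightest probe is that of A_23_P43490 alone.

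CDKN2B, which is known to respond to TGF-β, had a single probe, A_23_P216812 (22008979 to 22009038, minus strand). It had 4.94, 2.02 and 4.39 in the controls and 3.30, 2.11 and 2.02 after DFX. The probe was well above background in 2 control tumors, the first and the third, and in 0 DFX-treated tumors, and the groups overlapped. The mean of the controls, 3.79, lay below the 4.33 at which signals began to count as well above background in the DFX-treated tumors, so no fold is given. In the fit without a detection filter its adjusted p in limma was 0.772. MTAP, the neighbouring gene of the methionine salvage pathway, had 3 probes, each well above background on 0 arrays. Its tested probe A_24_P51118 had 3.01, 3.41 and 3.42 in the controls and 2.78, 3.15 and 2.74 after DFX (adjusted p = 0.614 in limma), with overlap. Of the 7 neighbouring genes listed at this locus, 5 were found on the array by name. No values are given for the antisense gene CDKN2B-AS1.

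**Figure D3:**
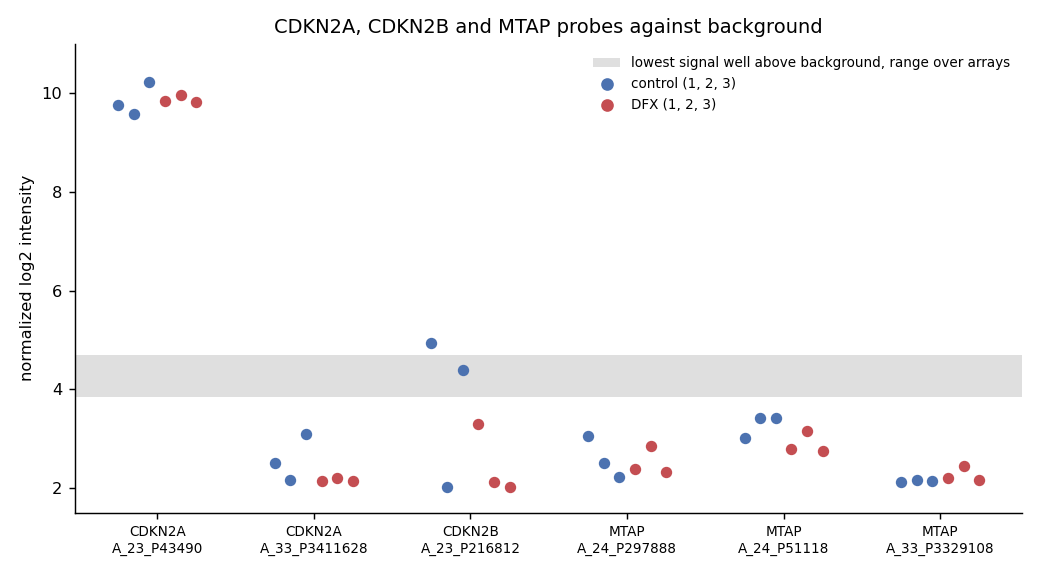
Normalized log2 intensity (vertical axis) of the CDKN2A, CDKN2B and MTAP probes in the 6 tumors, control in blue and DFX-treated in red, each in the order of replicates 1 to 3. The grey band is the lowest signal well above background over the 6 arrays, 3.84 to 4.69, and only the CDKN2A probe A_23_P43490 lay above it in every tumor.

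CDKN2C probe A_33_P3292540 (chromosome 1, 51439963 to 51440022) had 11.07, 10.79 and 10.99 in the controls and 11.10, 11.21 and 10.84 after DFX. DFX 2 was the highest tumor and control 2 the lowest, and the groups overlapped. The log2 fold change was 0.10 (standard error 0.14, 95% interval -0.25 to 0.46, adjusted p = 0.852 in limma). CDKN2D probe A_23_P89941 (chromosome 19, 10677226 to 10677285, minus strand) had 11.79, 11.88 and 11.44 in the controls and 11.58, 11.79 and 11.84 after DFX. Control tumors were both the highest and the lowest. The log2 fold change was 0.03 (standard error 0.16, 95% interval -0.35 to 0.42, adjusted p = 0.964 in limma).

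The probes of MDM2 lie in order along its transcript, at bases 1721, 1973, 5056 and 7042. The first ends in the stop codon shown above, and the others lie beyond it. Probe A_33_P3361707, at the stop codon, had 8.55, 8.31 and 8.34 in the controls and 8.50, 8.50 and 8.36 after DFX. Control 1 was the highest tumor of all, and the log2 fold change was 0.05 (standard error 0.12, adjusted p = 0.915 in limma).

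Probe A_23_P502750, at base 1973 (chromosome 12, 69233822 to 69233881) and spotted 10 times per array, had 5.84, 6.14 and 6.14 in the controls and 5.70, 5.70 and 5.61 after DFX. The DFX-treated tumors lay below the control tumors without overlap, as they did for 9.15% of all tested probes. The log2 change was -0.37 (standard error 0.125, 95% interval -0.67 to -0.06), a linear fold of 0.775. It had unadjusted p = 0.0254 and adjusted p = 0.557 in limma with Benjamini-Hochberg adjustment, and 4.95% of all tested probes were lower at that unadjusted threshold. Within an array the SD of its single spots was 0.133 to 0.198, with 9 spots used in DFX 2 and 10 elsewhere. Each tumor value is the mean of those spots, so that SD is not the error of a tumor value. The nearest tumors of the groups, control 1 and DFX 1 or 2, lay 5.84 against 5.70. Its unadjusted p stayed under 0.05 in 10 of 20 alternative analyses, the Kruskal-Wallis H test among them. Over the 20 the log2 fold change ran from -0.468 to -0.153. When single tumors were dropped its unadjusted p stayed under 0.05 only without control 1.

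The further probes did not pass the threshold. A_19_P00810040, at base 5056, had 6.88, 7.07 and 6.96 in the controls and 6.90, 6.88 and 6.66 after DFX, with overlap and a change of -0.16 (standard error 0.12, adjusted p = 0.731 in limma). A_24_P925664, the brightest probe, at base 7042, had 8.49, 8.42 and 8.68 in the controls and 8.59, 8.25 and 8.46 after DFX, with a change of -0.09 (standard error 0.14, adjusted p = 0.866 in limma), also with overlap. Their 95% intervals, -0.45 to 0.13 and -0.43 to 0.24, hold both 0 and the -0.37 measured at base 1973. The interval at the stop codon, -0.23 to 0.34, does not hold -0.37 but overlaps the interval of that probe. Within an array, the log2 value at base 1973 minus that at the stop codon was lower after DFX without overlap. DFX minus control was -0.419 for this difference (exact permutation p = 0.1). For the probes at bases 5056 and 7042 the same difference overlapped between groups (exact permutation p = 0.3 and 0.4). With 3 tumors per group this test gives no p below 0.1, so it cannot decide whether the probes changed differently.

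**Figure D4:**
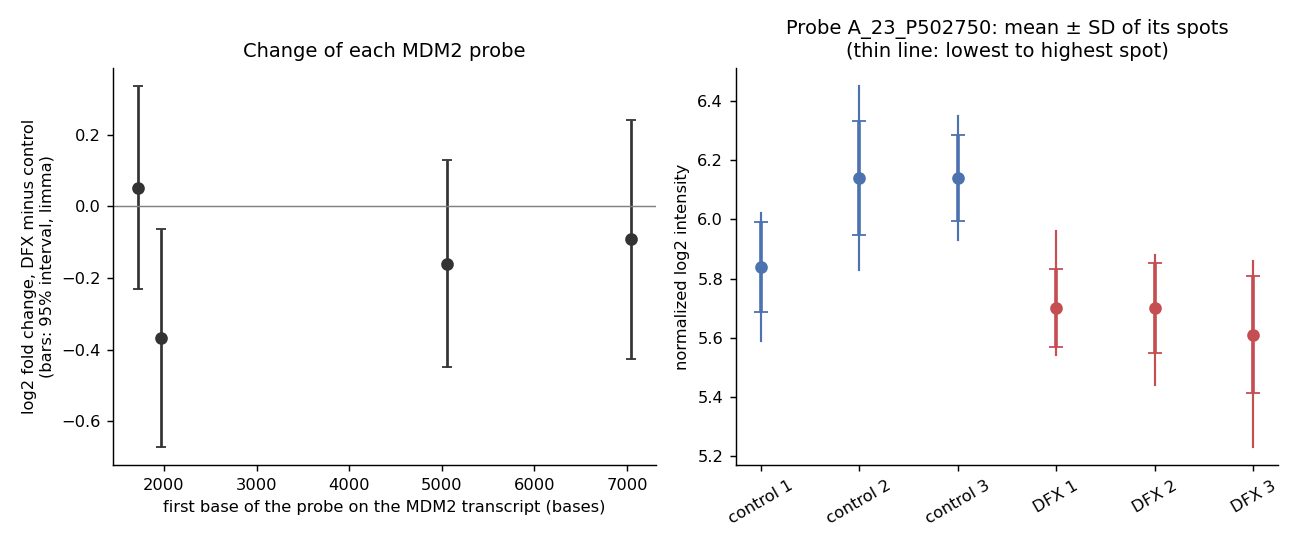
Left, log2 fold change (DFX minus control, with its 95% interval from limma) of the 4 MDM2 probes against the first base of the probe on the transcript. Right, normalized log2 intensity of probe A_23_P502750 in each tumor, as the mean and SD of its spots, with thin lines from the lowest to the highest spot. The probe at base 1973 had -0.37, and the probes on either side of it had 0.05 and -0.16.

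GADD45A is a stress-induced protein that binds PCNA and CDK1. Its probe A_23_P23221 (chromosome 1, 68153371 to 68153430) had 11.78, 11.82 and 11.56 in the controls and 11.74, 11.77 and 11.91 after DFX. DFX 3 was the highest tumor and control 3 the lowest, and the log2 fold change was 0.09 (standard error 0.12, 95% interval -0.21 to 0.38, adjusted p = 0.855 in limma). Of its paralogs, GADD45B had a log2 fold change of 0.07 (adjusted p = 0.909 in limma). GADD45G had probes of opposite sign, 0.29 for its brightest probe A_33_P3252394 (adjusted p = 0.846) and -0.60 for A_24_P120934 (adjusted p = 0.657 in limma), so that no direction could be given for it.

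MDM4, the partner of MDM2 in restraining p53, had 0.05 by its brightest probe (adjusted p = 0.944), and TP63, a marker of basal and squamous epithelium, had 0.16 (adjusted p = 0.749 in limma).

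TP73, a p53 relative that also turns on CDKN1A, varied widely among the DFX-treated tumors. Its brightest probe A_24_P413470 had 5.42, 5.53 and 5.55 in the controls and 6.61, 5.93 and 4.58 after DFX. DFX 1 and 2 lay above all controls and DFX 3 below them. The log2 fold change was 0.20 (standard error 0.495, adjusted p = 0.924 in limma), and without DFX 3 it was 0.77 (unadjusted p = 0.0199 and adjusted p = 0.552 in limma). It was -0.25 without DFX 1 and -0.23 with the slide column as a block, so its direction was not settled.

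Other transcriptional targets of p53 were described with a list of 30 genes, of which 29 were on the array and 28 had a tested probe. By the brightest probe 21 of the 28 were below 0 and 7 above (75% below, where 52.3% of all tested genes were), with a median log2 fold change of -0.053 against -0.012 over all tested genes. The split was 24 to 4 after median scaling and 20 to 8 after 75th percentile scaling, and it was weaker elsewhere, at 18 to 10 with the mean signal, 17 to 11 with array weights and 16 to 12 without control 3. Only 1 of the 28 was called, lower in DFX as were 4.29% of all tested genes, and 4 were lower without overlap (14.3%, against 8.41% of all tested genes). The called gene was TP53INP1, whose stress-induced product promotes autophagy and cell death. Its probe A_23_P168882 had 10.06, 9.76 and 9.61 in the controls and 9.40, 9.41 and 9.42 after DFX. The control tumors were spread while the DFX-treated tumors were close together below them, and the log2 fold change was -0.40 (standard error 0.142, unadjusted p = 0.0305 and adjusted p = 0.57 in limma with Benjamini-Hochberg adjustment). Without control 1 it was -0.27 (unadjusted p = 0.0685 in limma, with adjusted p = 0.597), and when single tumors were dropped its unadjusted p stayed under 0.05 only without control 3. The dimmer TP53INP1 probe A_33_P3421163 had 6.34, 6.39 and 5.64 in the controls and 5.95, 5.69 and 5.76 after DFX. For that probe the groups overlapped, with control 3 the lowest tumor, at -0.32 (unadjusted p = 0.202 and adjusted p = 0.72 in limma).

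The kinases and cyclins that the inhibitors bind had 10 tested genes and 0 calls in limma or by the Kruskal-Wallis H test, with a median log2 fold change of 0.014. The proteins of their turnover, among them the ubiquitin ligase subunits that degrade p21 and p27, had 11 tested genes and 0 calls by the brightest probe in either test, with a median of 0.010. By any probe limma called 1 of the 11, where 10.8% of all genes were. This was PSMD10, named after its values were seen, at -0.293 for the called probe A_33_P3335621 and 0.189 for its brightest. Of 16 tested genes of their transcriptional control limma called 1, a share near the 7.98% over all genes. Without overlap between groups 3 of the 16 were lower (18.8%, against 8.41% of all tested genes) and 0 higher. The gene called by limma was CBX7, a Polycomb protein known to repress the CDKN2A locus. Its probe A_23_P250735 had 10.98, 10.86 and 10.82 in the controls and 10.59, 10.70 and 10.61 after DFX. All DFX-treated tumors lay below all controls, at a log2 change of -0.25 (standard error 0.103, unadjusted p = 0.0484 and adjusted p = 0.592 in limma with Benjamini-Hochberg adjustment). Its unadjusted p too stayed under 0.05 only without control 3 among such omissions. Its dimmer probe A_33_P3343845 overlapped between groups, at -0.09 (adjusted p = 0.873 in limma). CDKN2A had 0.02 by probe A_23_P43490, while its other probe was near background, as given above. A link between CBX7 and CDKN2A was not tested.

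**Figure D5:**
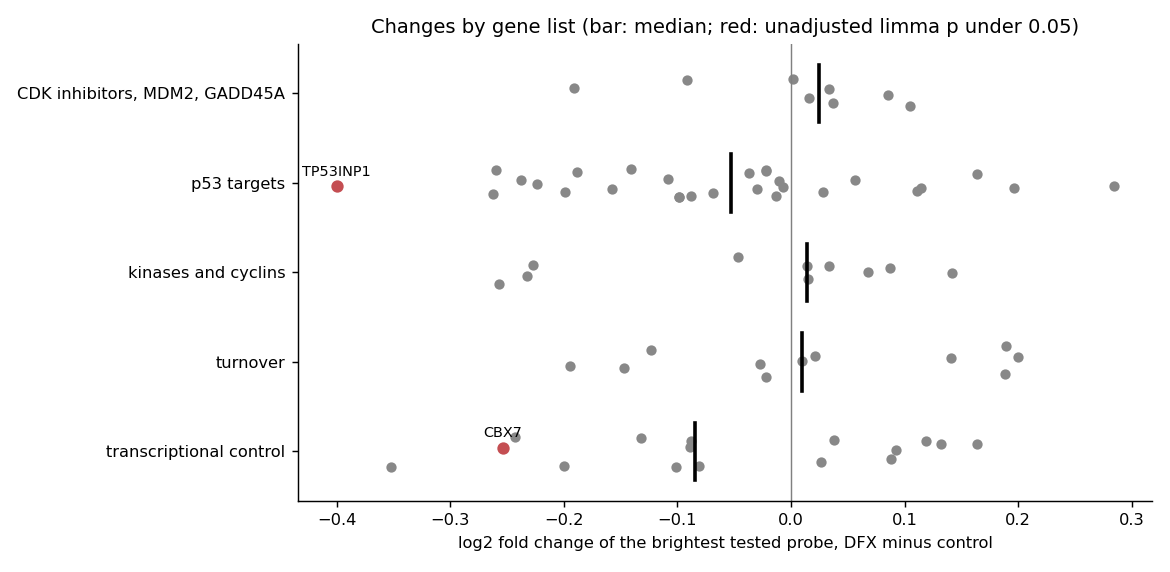
Log2 fold change (horizontal axis, DFX minus control) of the brightest tested probe of each gene, grouped by list, with the list median as a bar and genes of an unadjusted limma p under 0.05 in red. TP53INP1 at -0.40 and CBX7 at -0.25 are the only red points, and the 8 genes of the top row lie between -0.191 and 0.105.

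The pattern over the 6 tumors was also compared between genes, as a description over 12619 genes well above background on all arrays. For each of the 8 tested genes, 37 to 204 others (0.293% to 1.62%) had a Pearson r over 0.9, in values that share the same 6 arrays. The most alike gene was MIB2 for CDKN1A (r = 0.9905), PHF20L1 for CDKN1B (0.9954), DHX36 for CDKN1C (0.9804) and PRPF38A for CDKN2A (0.9968). It was VCY for CDKN2C (0.9943), CLCC1 for MDM2 (0.9903) and ZNF169 for GADD45A (0.9921). Between the genes described here, CDKN2D and GADD45A varied together (r = 0.893), and CDKN2A varied opposite to CDKN2D (r = -0.81) and GADD45A (r = -0.785), with control 3 highest for the former and lowest for the latter pair. MDM2 also varied opposite to CDKN2D (r = -0.78), and CDKN1A opposite to CDKN1B (r = -0.742). These values were picked by size among all pairs of the 8 genes, over 6 tumors.

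As to the tumors, all 10 markers of carcinoma epithelium were well above background on all arrays, and 50.3% to 56.5% of all probes were, the lowest in DFX 2. KRT8, KRT18 and EPCAM were higher and HBA2, HBD and the stromal gene DCN lower in the DFX-treated tumors, while LUM, also stromal, and PECAM1 were higher, each at an unadjusted limma p under 0.05. By list, 3 of 10 epithelial, 2 of 7 fibroblast, 1 of 4 endothelial and 2 of 3 red blood cell genes were called, against 7.98% of all genes. Of the fibroblast list 5 were below 0 and 2 above, with a median of -0.305. The probes are human and the hosts were mice, and the cells of origin of these signals were not tested. The other 3 tested endothelial markers were below 0, and the median of that list was -0.193. The mean over the red blood cell list was 8.69 to 9.56 in the controls and 7.79 to 7.95 after DFX. The part of these differences in the values of the genes above was not tested. All arrays lay on 1 slide, row 1 holding the controls and row 2 the tumors given DFX, so slide row and treatment cannot be told apart.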

How the data were processed

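RNA from 6 BxPC-3 tumors was hybridized to 6 one-color arrays. The authors deposited scanner files with intensities on a linear scale, spot p-values against background and flags, and a table of processed intensities, from which the values used here differed by a median of 0.00925 on the log2 scale. Per the file headers the scanner software was Agilent Feature Extraction 10.7.1.1, and per the labels 9.5.1.1. The study's methods give log2 transformation and quantile normalization of raw signals, with no signal column named. Here log2 values of the background-subtracted signal were brought to common quantiles over 58717 non-control spots. Then 1398 outlier spot values were dropped and spots averaged per probe. Probes with a median background p-value under 0.05 on all 6 arrays (31807 of 50599) were compared between groups with limma 3.58.1 in R 4.3.3 (lmFit and eBayes, two-sided, Benjamini-Hochberg over all tested probes, prior degrees of freedom 2.04), and as an alternative by Kruskal-Wallis, stated in the paper for its animal work in general. A gene stands for its brightest tested probe. No spot was saturated (0), and the number of arrays limits the precision. The tumors carry separate labels, with nothing on shared cages or preparation. Arrays correlated at 0.98 to 0.99.

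The gene symbols and gene lists were chosen with earlier results of these data known. Named were the 9 genes with every probe, MDM4, TP63, TP73 and the GADD45 paralogs, listed genes with an unadjusted p under 0.05, MTAP, and the genes of the most similar pattern. Some of the results under that rule are not reported here. Gene names and hg19 probe positions are those of the array, and 16302 of 22718 tested names matched the RefSeq table of GRCh38.p14. Probe sequences are those in the deposited files. The procedure was tested on simulated data. Alternatives covered scaling, background correction, signal column, filter, outlier flags, the authors' values, tests, blocks, array weights, the probe rule and each tumor left out.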

Additional observations from a re-analysis of the deposited data

How the results depend on the processing

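None of the 8 tested genes was called by its brightest probe, or by the mean of its probes where that was the alternative, under the 21 alternatives. CDKN2B, the other gene, was tested only without the detection filter and was not called. Over 24 results, 367 of 446 values counted as the same, 21 moved, 33 reversed, 24 lost and 1 gained an unadjusted p under 0.05. For a log2 fold change, the same meant an unchanged sign and side of the threshold. For a count it meant a value close to the main one. For a list median it meant a shift below the SD between replicates, so the sign could differ. The cause was not tested for any of the changes. The number of called probes was 4927 with the Kruskal-Wallis H test, 4213 with array quality weights and 1418 with the slide column as a block, and 1889 to 2717 when any single tumor was dropped. Calls by Kruskal-Wallis here are the probes or genes without overlap between groups. The share of calls lower in DFX was 58.8%, but 42.6% with 75th percentile and 71.8% with median scaling. The median of the member genes was -0.083 with median scaling, and ran from -0.029 to 0.065 when single tumors were dropped. That of the p53 targets was -0.15 with median scaling, -0.083 with array weights and -0.084 for averaged probes, and ran from -0.092 to -0.035 when single tumors were dropped. The called p53 targets, of 28 or 29 tested, numbered 2 with normexp, the mean signal, no filter and the model without moderation, and 4 with Kruskal-Wallis. They numbered 0 with the slide column or averaged probes, and 0 to 1 when single tumors were dropped. Of all tested probes, 7.46% to 9.04% were called in the settings that gave 2, 15.5% with Kruskal-Wallis and 4.46% with the slide column.

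Deviations of same-numbered tumors from their group means correlated at 0.027, 0.027 and 0.016. Tumors of unlike number were not compared in this way, so these values do not settle whether the replicate numbers pair the tumors. With the replicate block 2419 probes were called and 0 p53 targets, and MDM2 probe A_23_P502750 (-0.37, unadjusted p = 0.059), TP53INP1 and CBX7 lost their limma call. That MDM2 probe also lost it with 75th percentile scaling (-0.28), normexp (-0.18), the mean signal (-0.15), the slide column (-0.33) and without control 2 or 3 or any DFX tumor (-0.38 to -0.32). TP53INP1 and CBX7 also lost it with the slide column and without any tumor but control 3.

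Changes of sign were as follows. With median scaling, CDKN1B gave -0.038 (A_23_P204696) and -0.075, CDKN1C -0.10, CDKN2A -0.090, CDKN2C -0.012, CDKN2D -0.077, MDM2 probe A_33_P3361707 -0.055, GADD45A -0.030 and MDM4 -0.052. With 75th percentile scaling, CDKN1C gave -0.0060. With the slide column, CDKN1A gave 0.017, CDKN2A -0.11, MDM2 probe A_33_P3361707 -0.016 and TP73 -0.23. With array weights, CDKN1C gave -0.076, CDKN2D -0.12, MDM2 probe A_24_P925664 0.015 and MDM4 -0.080. When single tumors were dropped, the log2 fold change ran from -0.070 to 0.16 for CDKN1B probe A_23_P204696, -0.040 to 0.11 for A_24_P81841, -0.12 to 0.15 for CDKN1C, -0.12 to 0.20 for CDKN2A, -0.10 to 0.12 for CDKN2D and -0.17 to 0.00014 for MDM2 probe A_24_P925664. It ran from -0.087 to 0.12 for MDM4 and -0.25 to 0.77 for TP73.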

Other observations

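Genes near CDKN1C on chromosome 11, an imprinted region, had 6 tested genes, of which 5 were above 0, with a median log2 fold change of 0.197. SLC22A18AS was the only one called, and 2 of the 6 did not overlap between groups, where 7.98% of all tested genes were called and 15.4% did not overlap. It had normalized log2 intensities of 7.44, 7.37 and 7.45 in the controls and 8.04, 8.03 and 7.59 after DFX. The groups did not overlap, and the log2 fold change was 0.46 (standard error 0.152, unadjusted p = 0.0224 and adjusted p = 0.553 in limma). It overlaps SLC22A18 on the opposite strand, for which the value was 0.22 (adjusted p = 0.638 in limma, chosen after its values were seen), also without overlap.

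The 8 genes of the proliferation list had 0 calls by limma on the brightest probe, a median log2 fold change of 0.087, and 5 genes above 0. By any probe limma called 1 of the 8, MKI67, higher at 0.354 for probe A_33_P3374205 and named after its values were seen, where 10.8% of all genes were called. The 5 tested GADD45 paralogs and partners had 0 calls by limma, with 4 above 0 and a median of 0.070.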
